A study of Homo sapiens with 3 samples.

Results

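The Hippo pathway genes described here were YAP1, WWTR1, TEAD1, TEAD2, TEAD3, TEAD4, LATS1, STK3, STK4 and NF2. They were taken by name from a table of 35851 gene rows, in which each of the 10 had its own row. They were measured in 5637, a human bladder cancer cell line labelled as wild type, grown with fetal bovine serum and transfected with siRNA by a Lipofectamine reagent. The libraries were siMYBL2-1 and siMYBL2-2, from cells given siRNA against the transcription factor MYBL2, and siNC, the only library of cells given control siRNA. Whether the endings -1 and -2 name different siRNA sequences is not stated, so both were entered as samples of 1 group (n = 2), set against siNC (n = 1). Values are RPKM, assigned reads per kilobase of exon, divided by the total of the library.

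In the Hippo pathway the kinases STK3 (MST2) and STK4 (MST1) activate the kinases LATS1 and LATS2, and the membrane-linked scaffold merlin, product of NF2, brings LATS to its activators. Active LATS phosphorylates the coactivators YAP (YAP1) and TAZ (WWTR1), which are then held in the cytoplasm or degraded. Unphosphorylated YAP and TAZ enter the nucleus, where they bind DNA through the TEAD factors and switch on growth and matrix genes. Most of this control acts on the proteins and is not seen in RNA levels.

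All 10 genes were expressed in every library, from 1.57 RPKM (LATS1 in siNC) to 26.1 RPKM (YAP1 in siMYBL2-1). Of them, 7 were higher in both siMYBL2 libraries than in siNC (WWTR1, TEAD1, TEAD4, LATS1, STK3, STK4 and NF2), against 29.7% of the 13274 genes tested. TEAD2 and TEAD3 were lower in both, as were 36.4% of all genes tested, and YAP1 went in opposite directions, as did 33.9%. Both ratios share the siNC library, so a deviation of that library alone would move a gene the same way in both. In bulk RNA, fewer cells with a transcript and less of it per cell cannot be told apart. The 10 genes had a median log2 ratio to siNC of 0.33 (siMYBL2-1) and 0.13 (siMYBL2-2) on the log2(RPKM + 1) scale, beside medians of -0.04 and -0.01 over all genes tested.

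None of the 10 passed limma at an adjusted p of 0.05, a threshold that 0.00753% of all genes tested passed (1 gene higher and 0 lower). Their limma adjusted p was 0.999 each, and none had an unadjusted p under 0.05, against 4.71% of all genes tested. Limma-voom on the recovered reads called none of them either, and 10 of all rows tested. The smallest unadjusted p by limma was 0.0826, for TEAD1. With a single siNC library the test borrows its spread from the siMYBL2 pair. Nothing says that the libraries came from separate cultures, so the p-values may measure technical spread. Nor is it stated whether the pair had different siRNA sequences, so its spread may also include differences between siRNAs. What the spread of the pair holds was not tested.

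The libraries held between 40259436 and 46177658 assigned reads. MYBL2 was at 46.0 RPKM in siMYBL2-1 and 56.3 RPKM in siMYBL2-2, against 211 RPKM in siNC. By limma its log2 change was -2.03 (adjusted p 0.153), so the targeted gene itself did not pass in this fit. Plain log2 ratios of 6353 genes (mean of 5 RPKM or more) had a standard deviation of 0.483 between siMYBL2-1 and siMYBL2-2, 0.553 between siMYBL2-1 and siNC and 0.357 between siMYBL2-2 and siNC. All 9 epithelial and urothelial markers were expressed (summed level 2472 RPKM in siMYBL2-1, 1906 RPKM in siMYBL2-2 and 2177 RPKM in siNC). Against siNC, 4 of the 9 were higher in both siMYBL2 libraries, 3 were lower in both and 2 went in opposite directions. These 2 were EPCAM (177 RPKM in siMYBL2-1 and 71.8 RPKM in siMYBL2-2, against 102 RPKM in siNC) and CDH1 (36.2 and 8.98 RPKM, against 14.8 RPKM). Of 13 fibroblast, leukocyte, endothelial and erythroid markers only COL1A1 reached a mean of 1 RPKM, and HBB was listed at 0 in all 3 libraries.

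**Figure D1:**
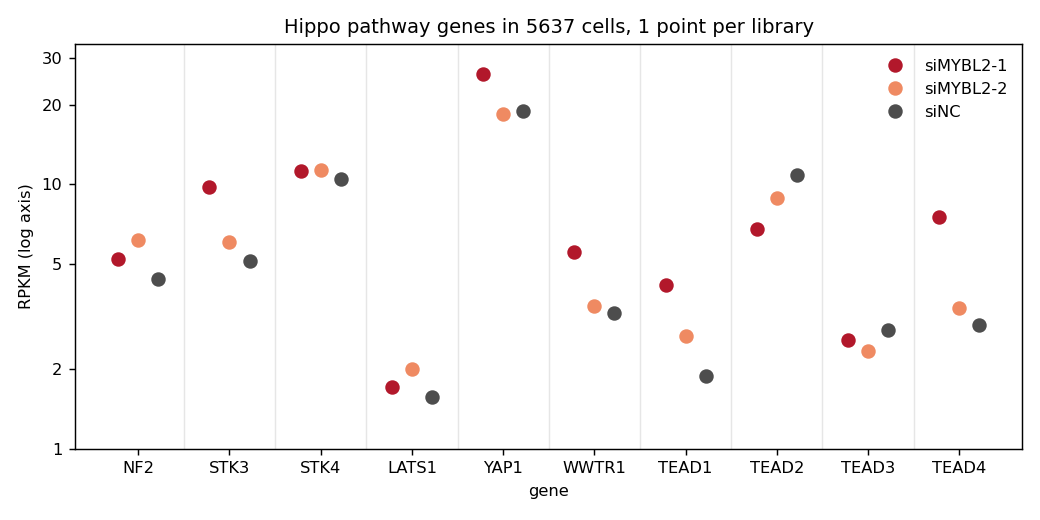
RPKM (vertical, log axis) of the 10 genes, 1 point for each of the libraries siMYBL2-1, siMYBL2-2 and siNC. YAP1 was the highest gene in every library and LATS1 the lowest, and siMYBL2-1 stood above the other libraries for STK3, YAP1, WWTR1, TEAD1 and TEAD4.

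By mean level in the siMYBL2 libraries the order ran from YAP1 (22.2 ± 5.41 RPKM, SD, n = 2) through STK4 (11.3 ± 0.0251 RPKM), STK3 (7.91 ± 2.65 RPKM), TEAD2 (7.81 ± 1.48 RPKM), NF2 (5.69 ± 0.675 RPKM), TEAD4 (5.46 ± 2.89 RPKM), WWTR1 (4.51 ± 1.47 RPKM), TEAD1 (3.43 ± 1.06 RPKM) and TEAD3 (2.47 ± 0.173 RPKM) to LATS1 (1.86 ± 0.210 RPKM). The siMYBL2 values overlapped between the neighbours STK3 and TEAD2, NF2 and TEAD4, TEAD4 and WWTR1, and WWTR1 and TEAD1. In siNC the order began with YAP1 at 18.9 RPKM, TEAD2 at 10.9 RPKM and STK4 at 10.5 RPKM. YAP1 lay above 84.5% of all genes tested by its mean over the 3 libraries, and LATS1 above 18.3%.

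NF2, the upstream scaffold (chromosome 22, 29603556 to 29698598, plus strand, hg38), was at 5.21 RPKM in siMYBL2-1 (1562 reads) and 6.16 RPKM in siMYBL2-2 (2041 reads), against 4.38 RPKM in siNC (1263 reads). Both siMYBL2 libraries were above siNC, siMYBL2-2 more so. The ratio to siNC was 1.19 in siMYBL2-1 (95% counting interval 1.11 to 1.28) and 1.41 in siMYBL2-2 (1.31 to 1.51), with a log2 change by limma of 0.31 (SE 0.29, adjusted p 0.999).

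The kinase genes STK3 and STK4 encode closely related enzymes. STK3 (chromosome 8, 98401403 to 98942827, minus strand) was at 9.79 RPKM in siMYBL2-1 (4875 reads) and 6.04 RPKM in siMYBL2-2 (3320 reads), against 5.13 RPKM in siNC (2457 reads). Its ratio to siNC was 1.91 in siMYBL2-1 (95% counting interval 1.82 to 2.01) and 1.18 in siMYBL2-2 (1.12 to 1.24), a log2 change by limma of 0.51 (SE 0.33, adjusted p 0.999). The larger part of this difference thus lay in siMYBL2-1.

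STK4 (chromosome 20, 44966474 to 45079959, plus strand) was at 11.28 RPKM in siMYBL2-1 (4280 reads) and 11.31 RPKM in siMYBL2-2 (4741 reads), against 10.5 RPKM in siNC (3830 reads). The siMYBL2 libraries were alike and 1.08 times siNC in each (95% counting intervals 1.03 to 1.12 and 1.03 to 1.13). STK4 starts 1.25 megabases beyond the end of MYBL2, on the same strand. STK3 made up 46.5% of the summed STK3 and STK4 level in siMYBL2-1 and 34.8% in siMYBL2-2, against 32.8% in siNC.

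LATS1, the kinase that acts on YAP and TAZ (chromosome 6, 149658153 to 149718256, minus strand), was at 1.71 RPKM in siMYBL2-1 (617 reads) and 2.00 RPKM in siMYBL2-2 (800 reads), against 1.57 RPKM in siNC (546 reads). It was 1.09 times siNC in siMYBL2-1 (95% counting interval 0.968 to 1.22), a difference not detectable at this depth, and 1.28 times siNC in siMYBL2-2 (1.14 to 1.43). LATS1, STK4 and NF2 were the genes of the set, beside TEAD2, that were lower in siMYBL2-1 than in siMYBL2-2, although the STK4 interval of that ratio (0.956 to 1.04) included 1.

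YAP1 (chromosome 11, 102110461 to 102233423, plus strand) was at 26.1 RPKM in siMYBL2-1 (6864 reads) and 18.4 RPKM in siMYBL2-2 (5357 reads), against 18.9 RPKM in siNC (4789 reads). The siNC value lay between the siMYBL2 values. YAP1 was 1.38 times siNC in siMYBL2-1 (95% counting interval 1.33 to 1.43) and 0.975 times siNC in siMYBL2-2 (0.938 to 1.01), so its log2 change by limma of 0.21 (SE 0.31, adjusted p 0.999) rested on siMYBL2-1 alone and was -0.03 without that library.

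WWTR1, which encodes TAZ (chromosome 3, 149517235 to 149736714, minus strand), was at 5.55 RPKM in siMYBL2-1 (1952 reads) and 3.47 RPKM in siMYBL2-2 (1348 reads), against 3.25 RPKM in siNC (1101 reads). It was 1.71 times siNC in siMYBL2-1 (95% counting interval 1.58 to 1.84) and 1.07 times in siMYBL2-2 (0.985 to 1.16), where the interval included 1. YAP1 was the more abundant coactivator RNA throughout, at 4.70 times WWTR1 in siMYBL2-1, 5.31 times in siMYBL2-2 and 5.81 times in siNC.

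The TEAD genes, which bind DNA for YAP and TAZ, lay on different sides of siNC. TEAD4 (chromosome 12, 2959330 to 3040673, plus strand) was at 7.50 RPKM in siMYBL2-1 (713 reads) and 3.41 RPKM in siMYBL2-2 (358 reads), against 2.94 RPKM in siNC (269 reads). Its ratio to siNC was 2.55 in siMYBL2-1 (95% counting interval 2.22 to 2.95) and 1.16 in siMYBL2-2 (0.988 to 1.36). With a log2 change by limma of 0.64 (SE 0.38, adjusted p 0.999) it had the largest mean difference of the 10 genes on the log2(RPKM + 1) scale, at rank 865 of 13274 by size. With a pseudocount of 0.1 TEAD1 came before it (0.80 against 0.77), as it did by limma-voom (0.83 against 0.77), and without siMYBL2-1 NF2 had the largest value (0.41 against 0.16).

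TEAD1 (chromosome 11, 12674591 to 12944483, plus strand) was at 4.17 RPKM in siMYBL2-1 (1794 reads) and 2.68 RPKM in siMYBL2-2 (1272 reads), against 1.88 RPKM in siNC (779 reads). It was 2.22 times siNC in siMYBL2-1 (95% counting interval 2.04 to 2.42) and 1.42 times in siMYBL2-2 (1.30 to 1.56). Both siMYBL2 libraries were thus above siNC beyond counting error, with a log2 change by limma of 0.60 (SE 0.31, adjusted p 0.999).

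TEAD2, the most abundant TEAD gene in siNC (chromosome 19, 49340595 to 49362457, minus strand), was at 6.76 RPKM in siMYBL2-1 (843 reads) and 8.85 RPKM in siMYBL2-2 (1218 reads), against 10.9 RPKM in siNC (1308 reads). It was 0.620 times siNC in siMYBL2-1 (95% counting interval 0.568 to 0.677) and 0.812 times in siMYBL2-2 (0.750 to 0.878), a log2 change by limma of -0.44 (SE 0.30, adjusted p 0.999). CD37, a tetraspanin gene of leukocytes, covers 10.7% of the exonic bases of TEAD2 on the opposite strand. CD37 was at 4.19 RPKM in siMYBL2-1 (729 reads) and 4.75 RPKM in siMYBL2-2 (913 reads), against 7.83 RPKM in siNC (1312 reads), and as the strand setting of the counting is not given, reads of the shared bases cannot be told apart.

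TEAD3 (chromosome 6, 35473597 to 35497076, minus strand) was at 2.59 RPKM in siMYBL2-1 (330 reads) and 2.35 RPKM in siMYBL2-2 (330 reads), against 2.81 RPKM in siNC (345 reads). Its ratios to siNC of 0.921 (95% counting interval 0.789 to 1.07) and 0.834 (0.715 to 0.973) were close to 1, and the first was not detectable at this depth.

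Summed over the family, TEAD RNA was at 21.0 RPKM in siMYBL2-1 and 17.3 RPKM in siMYBL2-2, against 18.5 RPKM in siNC. TEAD2 took 32.2% of this sum in siMYBL2-1 and 51.2% in siMYBL2-2, against 58.8% in siNC. TEAD4 took 35.7% in siMYBL2-1 and 19.7% in siMYBL2-2, against 15.9% in siNC, and TEAD1 took 19.8% and 15.5%, against 10.2%. The level of TEAD2 was 0.901 times that of TEAD4 in siMYBL2-1 and 2.59 times in siMYBL2-2, against 3.71 times in siNC. These shares are ratios within a library and do not depend on its scaling. As the strand setting is not given, the TEAD2 values may include reads of the bases shared with CD37. No test was run on the shares. With n = 2 against n = 1 the siMYBL2 libraries lay as far as 19.0 percentage points apart in the share of TEAD2.

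**Figure D2:**
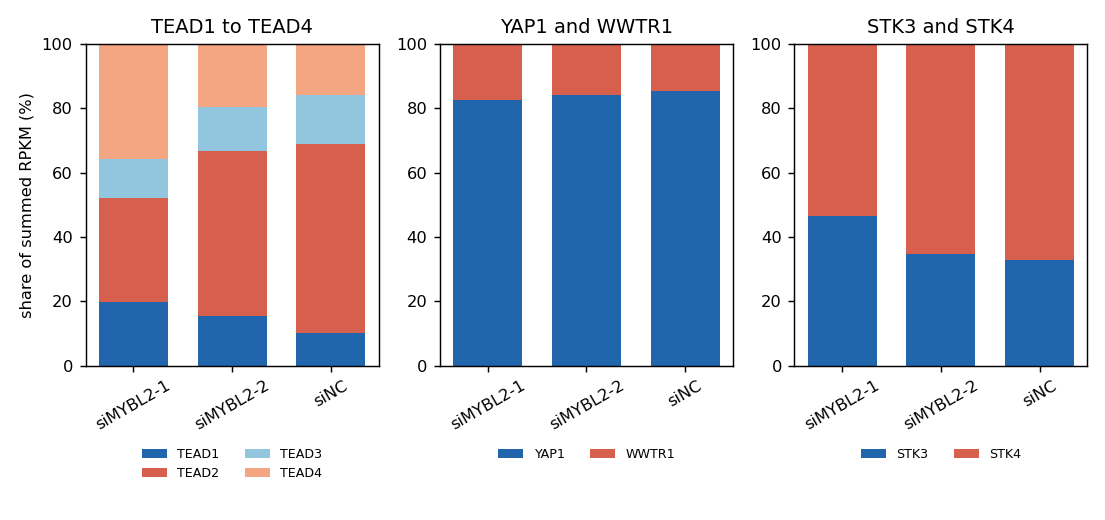
Share of the summed RPKM (%) that each gene took among TEAD1 to TEAD4, among YAP1 and WWTR1, and among STK3 and STK4, with 1 stacked bar for each of siMYBL2-1, siMYBL2-2 and siNC. TEAD2 took 32.2% in siMYBL2-1 and 51.2% in siMYBL2-2, against 58.8% in siNC, while YAP1 took between 82.5% and 85.3% of its pair.

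Ratios to siNC of 1.5 or more were found in siMYBL2-1 and not in siMYBL2-2. WWTR1, TEAD1, TEAD4 and STK3 were at least 1.5 times siNC in siMYBL2-1, against 11.2% of all genes tested, and TEAD2 was at or below the inverse of that ratio, against 15.0%. In siMYBL2-2 none of the 10 genes was 1.5 times siNC in either direction, against 4.91% of all genes tested in the higher direction and 8.63% in the lower. The same WWTR1, TEAD1, TEAD4 and STK3 were at least 1.5 times as high in siMYBL2-1 as in siMYBL2-2, against 10.6% of all genes tested, and none was lower to that extent, against 11.5%. The ratio of 1.5 was chosen after the values had been seen.

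For YAP1, WWTR1, TEAD4 and STK3 the difference within the siMYBL2 pair was larger than the mean log2 change against siNC, which held for 57.0% of all genes tested. TEAD4 was 2.20 times as high in siMYBL2-1 as in siMYBL2-2 (95% counting interval 1.93 to 2.50), STK3 1.62 times (1.55 to 1.70), WWTR1 1.60 times (1.49 to 1.72) and YAP1 1.41 times (1.36 to 1.47). Counting error was small beside these differences. The interval of the ratio to siNC left out 1 for 8 of the 10 genes in siMYBL2-1 and for 7 in siMYBL2-2, but it did so for 71.3% and 63.3% of all genes tested, and for 70.0% of them between the siMYBL2 libraries (8 of the 10 genes).

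**Figure D3:**
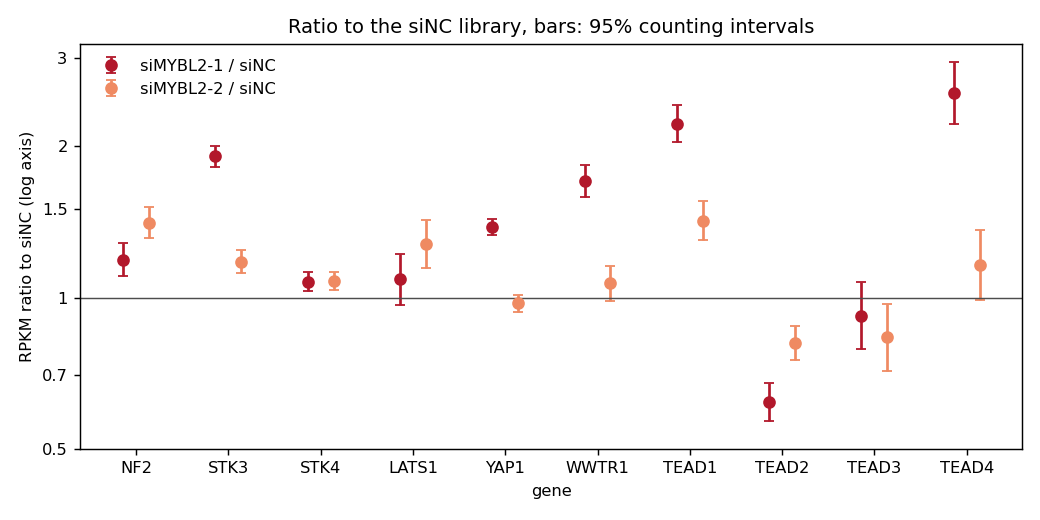
Ratio of RPKM to the siNC library (vertical, log axis) for siMYBL2-1 and siMYBL2-2, with bars for the 95% counting interval, which covers counting error only. TEAD4 was at 2.55 and 1.16, TEAD1 at 2.22 and 1.42 and TEAD2 at 0.620 and 0.812 in siMYBL2-1 and siMYBL2-2.

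Over the pair of log2 ratios to siNC, STK3 and TEAD1 were nearest to each other among the 10 genes (Euclidean distance 0.154), as were YAP1 and WWTR1 (0.209) and LATS1 and STK4 (0.127). The gene nearest to TEAD4 among its fellows was STK3 (0.295). Among the 6353 genes of at least 5 RPKM the nearest to TEAD4 were TP53BP2 (0.0235), ST14 (0.0611) and RASSF3 (0.0807). TP53BP2, a p53-binding protein gene, is also in the list of cofactors and binding partners below. It was at 35.0 RPKM in siMYBL2-1 and 18.1 RPKM in siMYBL2-2, against 15.9 RPKM in siNC. ST14, which encodes the membrane protease matriptase, was at 71.9 and 35.8 RPKM in siMYBL2-1 and siMYBL2-2, against 33.2 RPKM in siNC. Likeness over 3 libraries is a description of these libraries only.

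The sequences of the 10 genes left little room for reads shared between them. Of the 50-base words in the GENCODE release 29 transcripts of these genes, TEAD3 and TEAD4 shared 7, which is 0.227% of those of TEAD3 and 0.280% of those of TEAD4, and no others of the 10 shared any. Of the words of NF2, 1.90% were found in the transcripts of all other genes together, the largest such share of the 10. Rows on the opposite strand covered 9.97% of the exonic bases of YAP1 and 9.45% of those of WWTR1. The row over YAP1 (RP11-864G5.3) was at 29.5 and 19.1 RPKM in siMYBL2-1 and siMYBL2-2, against 17.8 RPKM in siNC. The row over WWTR1 (WWTR1-AS1) was at 1.20 and 0.890 RPKM, against 0.573 RPKM. As for TEAD2 and CD37, reads of the shared bases cannot be told apart, because the strand setting is not given. The values of these rows thus need not stand for separate RNAs.

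RefSeq starts were available for 7 of the 10 genes (11 starts, GRCh38.p14), and the 250 bases before each start were searched on both strands for GGAATG (the core of the TEAD motif), TTTGAA (the cell cycle homology region, bound by the MuvB complex with which MYBL2 acts) and AACNG (the MYB core). GGAATG was found before 1 start, that of YAP1, at position -162 from the start, against 11.9% of 35116 windows of the same length. TTTGAA was in none of the 11 windows, against 13.3% of all windows. AACNG, which 70.6% of all windows hold, was found before 8 of the 11 starts. The windows of YAP1 (chr11:102110197-102110446, plus strand), WWTR1 (chr3:149658026-149658275, minus strand) and TEAD2 (chr19:49362417-49362666, minus strand) are shown because these genes took the 3 courses seen here: opposite directions, higher in both siMYBL2 libraries and lower in both. WWTR1 and TEAD2 each had another start, whose window is not shown. AACNG matched 4 times in that window of WWTR1 and 1 time in that of TEAD2, against 1 time in each window shown. Just after the start shown, the sequence of WWTR1 was found near the beginning of a GENCODE transcript, but those of YAP1 and TEAD2 were not. The WWTR1 window lay inside the span of its gene row, and the TEAD2 window overlapped the edge of its row. Capitals mark GGAATG in YAP1 and AACNG or its reverse complement in WWTR1 and TEAD2.
YAP1: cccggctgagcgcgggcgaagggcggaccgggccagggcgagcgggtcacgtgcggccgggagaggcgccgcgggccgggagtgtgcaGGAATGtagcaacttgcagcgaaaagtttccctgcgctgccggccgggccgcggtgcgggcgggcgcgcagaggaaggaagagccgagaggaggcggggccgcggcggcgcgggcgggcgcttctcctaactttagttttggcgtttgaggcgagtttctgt
WWTR1: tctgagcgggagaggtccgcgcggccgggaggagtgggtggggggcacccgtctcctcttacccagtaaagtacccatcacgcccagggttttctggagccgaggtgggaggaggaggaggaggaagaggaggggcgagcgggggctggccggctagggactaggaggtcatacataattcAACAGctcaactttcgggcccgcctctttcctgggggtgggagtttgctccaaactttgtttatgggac
TEAD2: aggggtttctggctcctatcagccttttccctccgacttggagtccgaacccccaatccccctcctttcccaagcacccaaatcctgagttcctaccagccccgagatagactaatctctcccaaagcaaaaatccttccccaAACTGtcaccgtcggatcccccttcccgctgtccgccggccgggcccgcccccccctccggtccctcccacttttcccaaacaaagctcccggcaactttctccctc

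The other Hippo genes were read from 4 lists beside which the same background percentages hold. Of 31 other core and upstream genes 25 were tested, with 6 higher in both siMYBL2 libraries, 9 lower in both and 10 in opposite directions. None passed limma, and the list had median log2 ratios of -0.01 (siMYBL2-1) and -0.05 (siMYBL2-2). LATS2, the sister kinase of LATS1, was at 2.87 and 1.91 RPKM in siMYBL2-1 and siMYBL2-2, against 0.980 RPKM in siNC. WWC1 (KIBRA, a scaffold that activates LATS) was at 9.47 and 5.59 RPKM, against 3.77 RPKM in siNC. The limma adjusted p was 0.957 for LATS2 and 0.991 for WWC1.

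Among the genes of that list lower in both siMYBL2 libraries, the kinase gene TNIK was at 3.06 RPKM in siMYBL2-1 and 6.43 RPKM in siMYBL2-2, against 8.72 RPKM in siNC. RASSF6, of the RASSF family that binds the MST kinases, was at 1.03 and 1.58 RPKM, against 2.33 RPKM in siNC. The 15 genes of STRIPAK, the phosphatase complex that opposes the MST kinases, gave medians of -0.00059 and 0.12 with 4 genes higher in both, 1 lower in both and 10 in opposite directions. PPP2R1B, the STRIPAK gene with the largest mean difference, was at 4.95 and 4.69 RPKM in siMYBL2-1 and siMYBL2-2, against 3.85 RPKM in siNC. STRIP2 was at 3.80 and 2.84 RPKM, against 4.05 RPKM, PPP2CA at 35.7 and 34.7 RPKM, against 30.1 RPKM, and STRN3 at 12.7 and 10.9 RPKM, against 10.1 RPKM.

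Of 27 cofactors and binding partners of YAP, TAZ, TEAD and LATS, 23 were tested. In both siMYBL2 libraries 18 were higher and 1 was lower, against 29.7% and 36.4% of all genes tested. Another 4 went in opposite directions. The list had median log2 ratios of 0.43 and 0.16, and none of its genes passed limma. AMOTL2, an angiomotin family protein that binds YAP, was at 24.6 and 17.6 RPKM in siMYBL2-1 and siMYBL2-2, against 5.36 RPKM in siNC (limma adjusted p 0.228, and between 0.0412, by limma-voom, and 1.00 in the other fits). SFN, which binds phosphorylated proteins, was at 739 and 276 RPKM, against 185 RPKM. VGLL3, a TEAD cofactor, was at 4.75 and 1.45 RPKM, against 0.922 RPKM, and TJP1, a tight junction scaffold, at 16.2 and 10.5 RPKM, against 7.65 RPKM.

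Of the 22 genes in a published signature of YAP and TAZ targets 20 were tested, with medians of 0.92 and 0.68. In both siMYBL2 libraries 17 were higher and 2 lower, against 29.7% and 36.4% of all genes tested, and 1 went in opposite directions. Here too both ratios share the single siNC library. Of the 2 lower genes, IGFBP3 was at 43.3 and 33.6 RPKM in siMYBL2-1 and siMYBL2-2, against 67.0 RPKM in siNC. The other, CCDC80, was at 4.23 and 4.84 RPKM, against 5.19 RPKM. ANKRD1, the only gene of all that passed limma, was at 93.0 and 40.9 RPKM in siMYBL2-1 and siMYBL2-2, against 3.14 RPKM in siNC (log2 change 3.92, SE 0.43, adjusted p 0.0405), a call that was lost in 5 of the 9 other fits, over which its adjusted p ran between 0.00332 and 1.00. CCN1 was at 20.8 and 10.7 RPKM, against 3.34 RPKM, and F3 at 76.5 and 29.3 RPKM, against 12.7 RPKM. The signature shares AMOTL2 and PTPN14 with the list of partners and LATS2 with the core list.

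**Figure D4:**
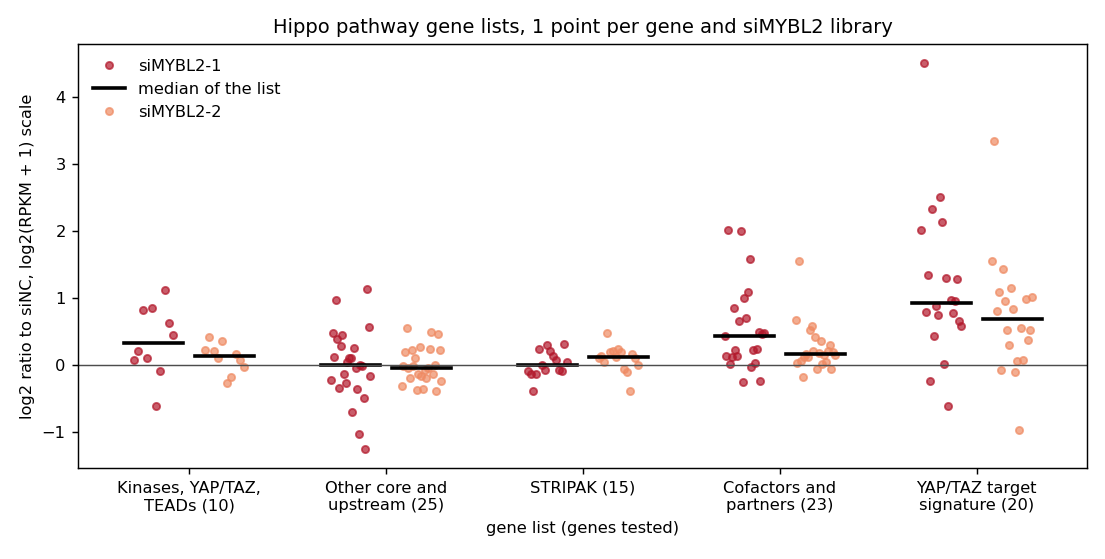
Log2 ratio to siNC (vertical, log2(RPKM + 1) scale) of each tested gene in 5 Hippo gene lists, with points for siMYBL2-1 and siMYBL2-2 and black lines for the list medians. The medians in siMYBL2-1 and siMYBL2-2 were 0.33 and 0.13 for the kinases, YAP, TAZ and TEADs, and 0.92 and 0.68 for the target signature.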

How the data were processed

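The authors deposited RPKM values of 3 libraries in 1 table, which per the file headers also holds the exons of each gene row and their summed length. The submitters' processing notes list cutadapt 1.9, HISAT2 2.0.4, StringTie 1.3.4d and hg38 without saying what each did. How reads were counted, the strand setting and the annotation: not given in the sources used here. Reads were recovered from RPKM and length, and 100% of values were whole within 0.001 reads. Ratios between libraries carry exact conditional binomial (Clopper-Pearson) 95% intervals on these reads, for counting error alone (PCR copies were not identified by molecular tags).

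siMYBL2 (2 libraries) was compared with siNC (1 library) by limma-trend (limma 3.58.1, R 4.3.3) on log2(RPKM + 1) over 13274 genes whose mean reached 1 RPKM, with Benjamini-Hochberg adjustment over all of them and a threshold of 0.05. This scale understates changes of low genes. The fit had 1 residual degree of freedom and 10.2 in total after moderation. Alternatives were other pseudocounts, filters, scalings and moderation, limma-voom on the recovered reads, and leaving out each siMYBL2 library. The 10 genes and the lists were chosen with earlier results of these data known. All 10 genes are named; from each other list the 4 genes with the largest mean log2 change of the same sign in both libraries are named, with any gene called. CCN1 and CCN2 were matched through RefSeq synonyms. CD37, RP11-864G5.3 and WWTR1-AS1 were named for their overlap with members. IGFBP3, CCDC80, EPCAM and CDH1 were named for their directions against siNC. Python 3.11.15 and scipy 1.17.1 were used; sequences are RefSeq's. The planned identity between member proteins was not analysed here.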

Additional observations from a re-analysis of the deposited data

How the results depend on the processing

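None of the 10 genes passed under any of the 9 other fits, in which their adjusted p lay between 0.810 and 1.00. Of all genes tested, 0 passed when low values were not filtered, with a 5 RPKM filter, with median of ratios or upper quartile scaling and with robust moderation, and 10 passed by limma-voom, against 1 as reported; the cause was not tested. With the filter at 5 RPKM, which leaves 5 of the 10 genes, 3 were higher and 1 was lower in both siMYBL2 libraries; fewer genes tested account for this. Leaving out 1 siMYBL2 library gave 7 to 8 of the genes higher and 2 to 3 lower than siNC, with values but no test, and the log2 change of YAP1 lay between -0.034 (without siMYBL2-1, a change of sign) and 0.44 (without siMYBL2-2). The other 104 of 105 values for single genes kept their direction, and those with a test kept their side of the threshold. Values without 1 siMYBL2 library could move from the mean of the pair only by part of its difference. Staying within the spread of the pair was thus fixed in advance for them and says nothing on stability. The log2 change of TEAD4 was 1.11 without siMYBL2-2 and 0.16 without siMYBL2-1. MYBL2 passed by limma-voom alone (log2 change -2.05, adjusted p 0.00811). The scalings moved the median log2 change of all genes, siMYBL2 against siNC, by at most 0.03. Without siNC no comparison can be made. No paired analysis was possible because siNC has a single library, so the groups share fewer than 2 replicate numbers. At these depths counting error limits the ratios of TEAD3, TEAD4 and LATS1 most.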
